A study of Dicentrarchus labrax with 16 samples.

Results

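DNA methylation of the testis was described on its own in 3 wild adult male European sea bass (Dicentrarchus labrax), each fish giving 1 library of reduced representation bisulfite sequencing (RRBS). RRBS cuts genomic DNA with MspI at CCGG, converts unmethylated cytosines with bisulfite and reads the ends of the short fragments, so that CpG-rich sequence is sampled more often than the rest of the genome. The fish were captured at sea outside the reproductive season, received no treatment, and are called testis 1, 2 and 3. The cytosines described are those of CpG sites, each with its chromosome, position and strand, that were covered by at least 10 reads in all 3 testes and were in none of them among the 0.1% of cytosines with the highest coverage. These were 742236 cytosines of the 1396558 listed in any testis library and of the 1456257 listed in any RRBS library of the series. They belonged to 644868 CpGs, of which 97368 (15.1%) had both strands covered. The linkage groups of the build dicLab v1.0c held 528222 of the cytosines, and its unplaced sequence held 214014 (28.8%).

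Methylation of the cytosine in CpG is laid down by DNA methyltransferases, and since CpG is its own reverse complement, the mark can be copied from the old strand to the new one after replication. In vertebrates most CpGs are methylated, and the exceptions are mainly short CpG-rich stretches, often at promoters, that stay free of the mark. The testis holds germ cells at several stages together with Sertoli, Leydig and other somatic cells. A level is the percent of reads that kept the C, over all cells of the piece of tissue, so a different mix of cell types and a different level within a type cannot be told apart. The methylation files carry no genes, so the labelled tissue could not be checked against marker genes, and positions of genes, promoters and exons on this build were not used here.

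The libraries listed 1188238, 1266961 and 1179764 cytosines in testis 1, 2 and 3, with a mean coverage of 56.8, 79.6 and 69.3 reads. The median coverage of the cytosines kept was 56, 87 and 68 reads. RRBS reads carry no molecular identifier, so an interval made from the reads of a cytosine holds their counting error and nothing else. Nothing in the labels names a batch.

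Methylation in the testis was bimodal. Of the cytosines, 58.6% ± 0.30 (SD, n = 3 fish) were over 80% methylated, 23.1% ± 0.38 were under 10%, and 18.3% ± 0.26 lay between. The share over 80% was 58.3% in testis 1, 58.4% in testis 2 and 58.9% in testis 3, and the share under 10% was 23.1%, 23.5% and 22.8%. The mean level was 65.0%, 64.9% and 65.4%, and the median level was 88.6% ± 0.28. The fish differed by less than 1 point in each of these 3 shares and in the mean. A level between 40% and 60%, near the middle of the scale, was found at 4.43% ± 0.081 of the cytosines.

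The extreme ends of the scale varied more between libraries. The share of cytosines with every read methylated was 13.9% in testis 1, 10.8% in testis 2 and 11.6% in testis 3. Testis 1 had the lowest coverage and the highest share. The share with no methylated read was 12.2%, 10.8% and 11.3% in the same order. Both shares fell as coverage rose, and the part of coverage in this order was not tested. Levels over 90% were found at 47.1% ± 0.66 of the cytosines. Levels over 95% were found at 33.2% in testis 1, 31.0% in testis 2 and 29.5% in testis 3, an order that did not follow coverage.

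**Figure D1:**
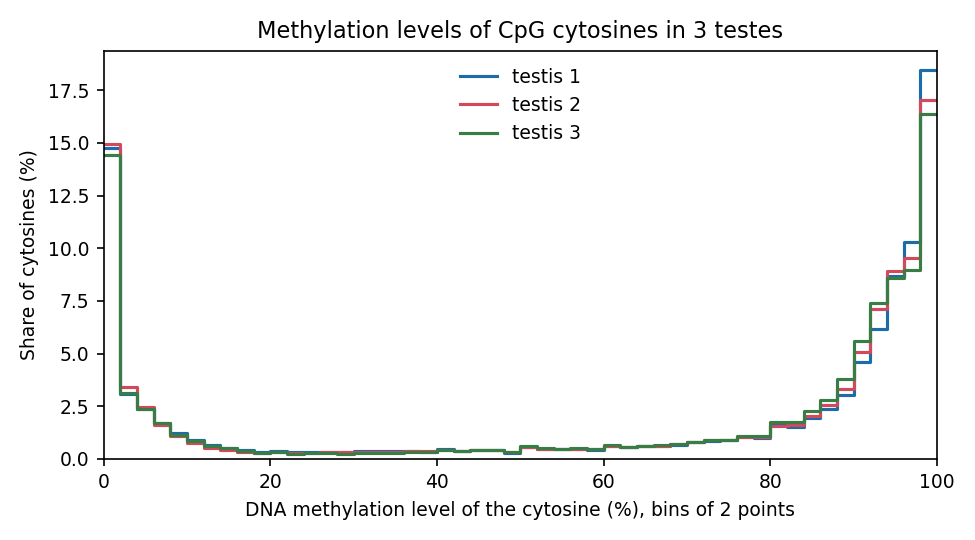
Share of the 742236 cytosines (vertical axis, percent) in bins of 2 points of DNA methylation level (horizontal axis, percent), 1 line per testis library. All 3 lines have a peak at each end of the scale, and 4.43% of cytosines lie between 40% and 60%.

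The class of a cytosine was shared between fish in most cases. It was the same in all 3 libraries at 83.2% of the cytosines. Among cytosines whose mean over the fish was under 10%, 86.9% were in that class in every library, and among those with a mean over 80% the share was 88.3%. Intermediate cytosines kept their class in every library in 61.0% of cases. A cytosine under 10% in 1 fish and over 80% in another was found 1426 times (0.192%).

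Sequence that is not placed on a linkage group was more methylated than the linkage groups in every fish. Its mean was 78.6%, 78.0% and 78.0% in testis 1, 2 and 3, against 59.5%, 59.6% and 60.2% on the linkage groups, so the ranges do not overlap. The share of cytosines under 10% was 11.7% ± 0.30 on unplaced sequence and 27.8% ± 0.42 on the linkage groups, and the share over 80% was 75.5% ± 0.14 and 51.7% ± 0.38 (SD, n = 3). The median coverage was 84 reads on unplaced sequence, against 63 to 66 on the linkage groups. Whether the unplaced cytosines lie in sequence that occurs more than once in the genome was not tested. Unplaced sequence is a chain of separate pieces, so distances and runs below were measured on the linkage groups alone.

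Isolated CpGs were highly methylated and crowded CpGs were not. On the linkage groups, CpGs with no other covered CpG within 100 bp had a mean level of 75.1% ± 0.50 (SD, n = 3 fish), and 5.35% of them were under 10%. With 6 to 9 others the mean was 51.1% ± 0.33. With 15 or more others the mean was 23.3% ± 0.16, and 73.7% were under 10%. The mean fell at every step of neighbour number in each fish, and the steps were far larger than the spread between fish. The share of intermediate CpGs fell as well, from 32.7% with no covered neighbour to 5.44% with 15 or more. The number of neighbours counts covered CpGs, and not all CpGs of the genome.

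Where both strands of a CpG were covered, the strands mostly had the same level. Over the 97368 such CpGs, the mean levels of the strands had a correlation of r = 0.910, and 92.8% lay within 20 points of each other. The mean over all forward and over all reverse cytosines was 65.1% for each. A set of 3744 CpGs (3.85%) had strands over 50 points apart. In 1871 of these the forward strand was higher and in 1873 the reverse strand was higher. The lower strand had a median of 8.96% and the higher strand a median of 94.4%. In 3433 of the CpGs another CpG was covered within 50 bp, and the median level of those neighbours was 91.0%. The higher strand lay within 20 points of the neighbours in 87.5% of these CpGs and the lower strand in 3.26%.

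Many of these CpGs with unequal strands, but not all, lay in pairs of a set order. Of the CpGs with a higher forward strand, 961 (51.4%) had a CpG with a higher reverse strand within 60 bp downstream, and 9 (0.481%) had such a CpG within 60 bp upstream. CpGs whose strands agreed within 20 points had it downstream in 4.65% of cases. The distance between the members of such a pair was 7 to 47 bp, with a median of 45 bp, below the read length of 50 bp. An example lay at the start of LG10. At position 280 the forward cytosine was methylated in 29 of 29 reads in testis 1 (100%), in 93.5% of 107 reads in testis 2 and in 95.2% of 21 reads in testis 3. At position 281, the reverse cytosine of the same CpG had 0 of 11 reads, 2.38% of 42 reads and 0 of 16 reads. The exact 95% intervals of the counts of 0 reach up to 28.5% in testis 1 and 20.6% in testis 3. The CpG 47 bp downstream had the mirrored order, with 44%, 15% and 40% on the forward strand at position 327 and 100%, 100% and 94.1% on the reverse strand at position 328. The strands of both CpGs thus stood apart in the same way in every fish. The share of CpGs with strands over 50 points apart was 8.65% where the lowest coverage was 10 to 19 reads and 0.306% where it was 50 or more. In library preparation the cut ends were filled in with nucleotides before adapters were joined, and the part of this step in the unequal strands was not tested.

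Neighbouring CpGs had nearly the same level well beyond the length of a read. For pairs of CpGs of the same library 2 to 10 bp apart, Pearson's r was 0.961, 0.962 and 0.962 in testis 1, 2 and 3 over 169666 pairs. The mean over the libraries was 0.949 at 21 to 50 bp, 0.955 at 51 to 100 bp and 0.920 at 201 to 500 bp. It fell to 0.791 at 501 to 1000 bp, to 0.414 at 1001 to 2000 bp and to 0.118 at 2001 to 5000 bp. The main loss of correlation therefore lay between 500 and 5000 bp. Beyond 5000 bp it stayed between 0.0678 and 0.0826 up to 100000 bp. The SD over libraries was 0.0036 or less in every distance bin. The pairs are a description, since CpGs of a fragment share molecules, library and depth.

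The decay was common to the fish. When the level of the first CpG was taken from 1 fish and that of the second from another, r was 0.951 at 2 to 10 bp and 0.951 at 51 to 100 bp, against 0.962 and 0.955 within a library. At 1001 to 2000 bp the value was 0.414 in both cases. The correlation of the deviations of single fish was lower and fell at shorter distances. The deviation of a fish from the mean of the 3 fish had a correlation between CpGs of 0.402 at 2 to 10 bp, 0.287 at 21 to 50 bp, 0.205 at 51 to 100 bp and 0.041 at 501 to 1000 bp. CpGs closer than a read length can lie in the same reads, whereas those more than 50 bp apart do not. The deviations also hold counting error. The part of shared reads and of counting error in the fall of their correlation was not tested.

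**Figure D2:**
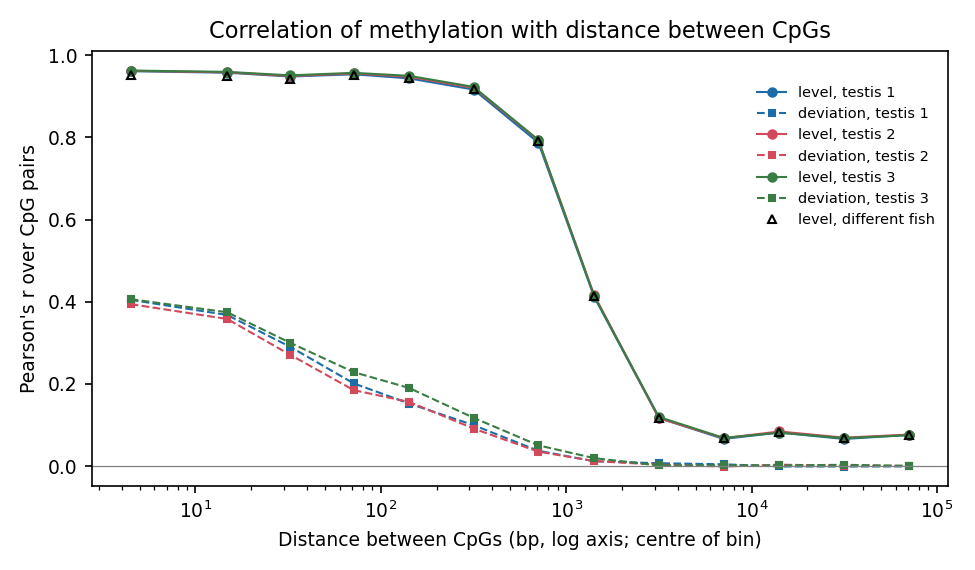
Pearson's r over pairs of CpGs (vertical axis) by the distance between them (horizontal axis, bp, log scale). Circles give the level within each testis library, triangles the level with the CpGs taken from different fish (mean of 3 pairs of fish), and squares the deviation of a fish from the mean of the 3 fish. The level curves of the 3 libraries lie on each other and fall from 0.920 at 201 to 500 bp to 0.118 at 2001 to 5000 bp, whereas the deviations start at 0.402.

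At short range, partners were of the same class more often for unmethylated CpGs than for methylated ones. With the level averaged over the fish, a CpG 2 to 10 bp from an unmethylated CpG (under 10%) was itself unmethylated in 97.3% of cases. At 201 to 500 bp the share was still 94.6%. It was 86.0% at 501 to 1000 bp, 56.1% at 1001 to 2000 bp and 32.2% at 2001 to 5000 bp. For CpGs over 80% the shares of partners of the same class were 92.8%, 85.1%, 78.3%, 67.0% and 60.1% over the same distances. The unmethylated share was thus the higher of the pair up to 1000 bp and the lower beyond. The classes differ in overall frequency, so this crossing does not rank how closely each predicts its surroundings. Of all CpGs on the linkage groups, 27.1% were under 10%, 20.3% intermediate and 52.6% over 80%. At 50001 to 100000 bp the same-class share was still above this makeup, at 30.4% for CpGs under 10% and 57.6% for those over 80%. The unmethylated share had been lower, 28.9%, at 5001 to 10000 bp. The intermediate share fell at every step of distance toward its share of all CpGs. Intermediate CpGs kept company over shorter distances. Their partners were intermediate in 70.4% of cases at 2 to 10 bp, 53.5% at 101 to 200 bp, 40.1% at 201 to 500 bp and 27.5% at 501 to 1000 bp.

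Runs were defined on the linkage groups as consecutive covered CpGs of the same class, at most 200 bp apart. With the mean level of the fish, 17395 unmethylated runs were found, and 9113 of them held 5 or more CpGs. In the libraries taken alone the number of such runs was 9442, 9196 and 9231. With the mean level, runs of 5 or more CpGs held 85.8% of the unmethylated CpGs, and the 1205 runs of 20 or more held 26.6%. The median run of 5 or more had 9 CpGs and was 191 bp long, with 5.21 CpGs per 100 bp, and the 90th percentile of length was 444 bp. These values were lower in testis 1, 2 and 3 taken alone, except for the 9 CpGs and the density. Runs of 5 or more then held 81.7%, 83.6% and 82.0%, with a median length of 173, 183 and 175 bp. Runs of 20 or more numbered 908, 1090 and 924 and held 19.3%, 23.7% and 20.1%. The median length depended on the gap allowed between CpGs, with 116 bp for at most 100 bp and 265 bp for at most 500 bp, and was 152 bp where every fish had to be under 10%. With the mean level, 3244 of the unmethylated runs (18.6%) were of a single CpG, out of 125707 unmethylated CpGs. In testis 1, 2 and 3 taken alone, single CpGs made up 23.7%, 24.3% and 23.6% of the runs.

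Methylated runs were more numerous and held fewer CpGs each. There were 76816, of which 16114 had 5 or more CpGs (15790 ± 240, SD over the n = 3 libraries taken alone). These held 50.4% of the methylated CpGs, and the 278 runs of 20 or more held 2.91%. The median run of 5 or more had 6 CpGs over 152 bp, with 4.42 CpGs per 100 bp. Intermediate CpGs formed 48765 runs, 60.8% of which were of a single CpG, and 3569 had 5 or more. With the mean level, both long classes mostly ended at a gap between covered CpGs and not at a change of level. A gap of more than 200 bp closed both sides of 72.7% of unmethylated and 73.1% of methylated runs of 5 or more CpGs. In testis 1, 2 and 3 taken alone, it did so for 51.9%, 64.3% and 54.2% of unmethylated runs. For methylated runs the shares were 70.2%, 70.5% and 71.3%. Whether the gaps hold CpGs that were not covered was not tested. The lengths are therefore those of covered stretches, and the domains in the genome can be longer.

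Where a covered CpG of another class ended an unmethylated run of 5 or more, the change was mostly small. The median level of that CpG was 12.1% over 2842 such ends, and 1.16% of the ends were over 80%. At the 4883 ends of methylated runs the median was 70.2%. Ends at a gap are not included. A CpG just past the class limit closes a run, so a small change can follow from the limit itself. The part of counting error in these ends was not tested.

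The runs with the most CpGs in the mean of the fish had similar mean levels in each fish, but the size of the largest run differed between fish. In the libraries taken alone, the most CpGs in an unmethylated run were 74, 79 and 79 in testis 1, 2 and 3, and in a methylated run 62, 66 and 87. With the mean level, the largest unmethylated run, LG9:19598132-19599196, held 91 CpGs over 1065 bp, with a mean level of 1.45% in testis 1, 1.17% in testis 2 and 1.60% in testis 3. The next, LG6:134201-135731, held 84 CpGs over 1531 bp, with 2.22%, 2.65% and 2.55%. The mean level was under 3% in every fish in both runs. The largest methylated run, LG5:29097914-29098981, held 66 CpGs over 1068 bp, with 97.5%, 98.0% and 95.9%. The next, LG10:6443967-6444833, held 62 CpGs over 867 bp, with 96.1%, 92.6% and 93.4%. The median coverage of the cytosines in the last run was 368 reads, against 66 to 100 in the other 3, and whether its sequence occurs more than once in the genome was not tested. These runs had been selected for their class, so their levels are a description.

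**Figure D3:**
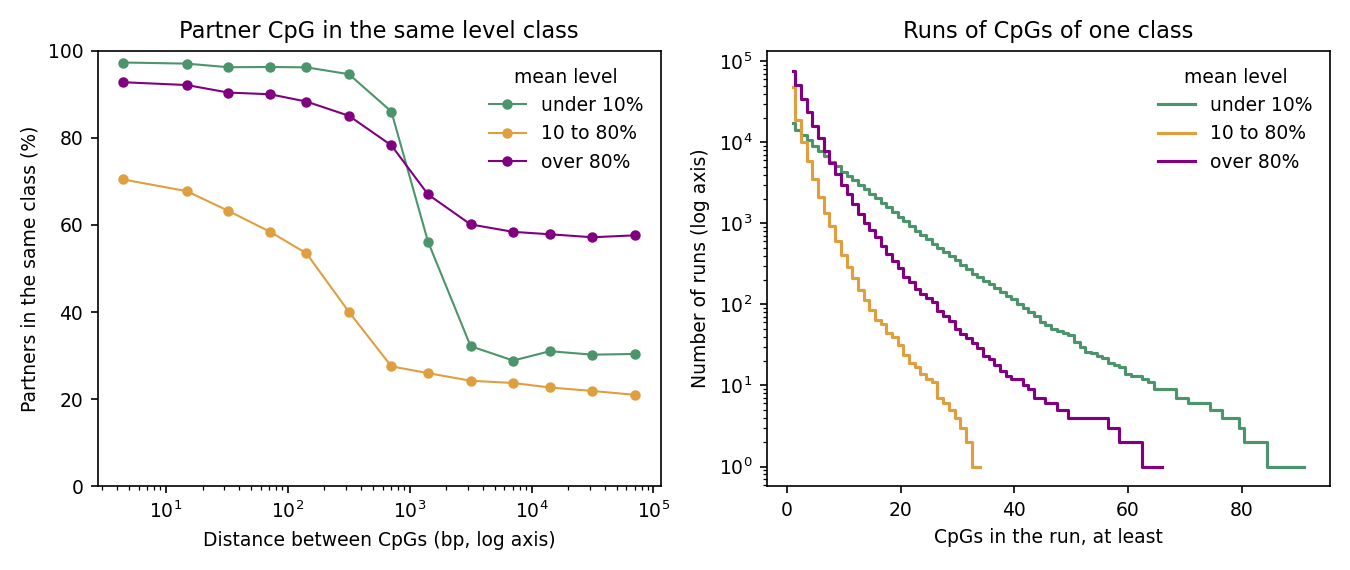
Left, share of partner CpGs in the same level class (vertical axis, percent) by distance (horizontal axis, bp, log scale), for CpGs under 10%, from 10% to 80% and over 80% in the mean of the 3 fish. Right, number of runs (vertical axis, log scale) with at least the number of CpGs on the horizontal axis. Unmethylated partners are the most alike up to 1000 bp, and unmethylated runs reach 91 CpGs, methylated runs 66 and intermediate runs 34.

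Linkage groups differed in mean level by far more than the fish did. LG7 was the lowest, with 54.7%, 54.6% and 55.3% in testis 1, 2 and 3, followed by LG8 with 55.4%, 55.4% and 55.8%. LG24 was the highest, with 67.7%, 68.2% and 68.9%, and LGx came next, with 64.3%, 64.6% and 65.1%. The lowest library on LG24 was above the highest library on each of the other linkage groups, whereas LG7 and LG8 were separated by about 0.1 point, from 55.26% in testis 3 on LG7 to 55.37% in testis 1 on LG8. The highest mean after these was that of LG5, 62.5%, and the SD over the 24 linkage groups was 2.74 points, against a median SD over fish of 0.39 points. LG7 and LG8 changed places with a coverage minimum of 30 reads or with the mean of 1-Mb windows, where LG8 was the lowest at 53.8% and 54.2%. LG24 and LGx remained the highest under both.

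The order of the linkage groups followed the share of unmethylated cytosines. That share ran from 19.5% on LG24 to 33.8% on LG7, and over the 24 linkage groups it had r = -0.98 with the mean level, of which it is a part. The mean level of cytosines over 80% was between 93.3% and 94.0% on every linkage group and had r = 0.067 with the linkage group mean. The limit of 80% itself keeps this value in a narrow range.

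Testis 3 had the highest mean on 24 of 24 linkage groups. Testis 1 was the lowest on 18 and testis 2 on 6. The offset was small, with an SD over fish of between 0.26 and 0.57 points, and on unplaced sequence testis 1 was the highest.

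**Figure D4:**
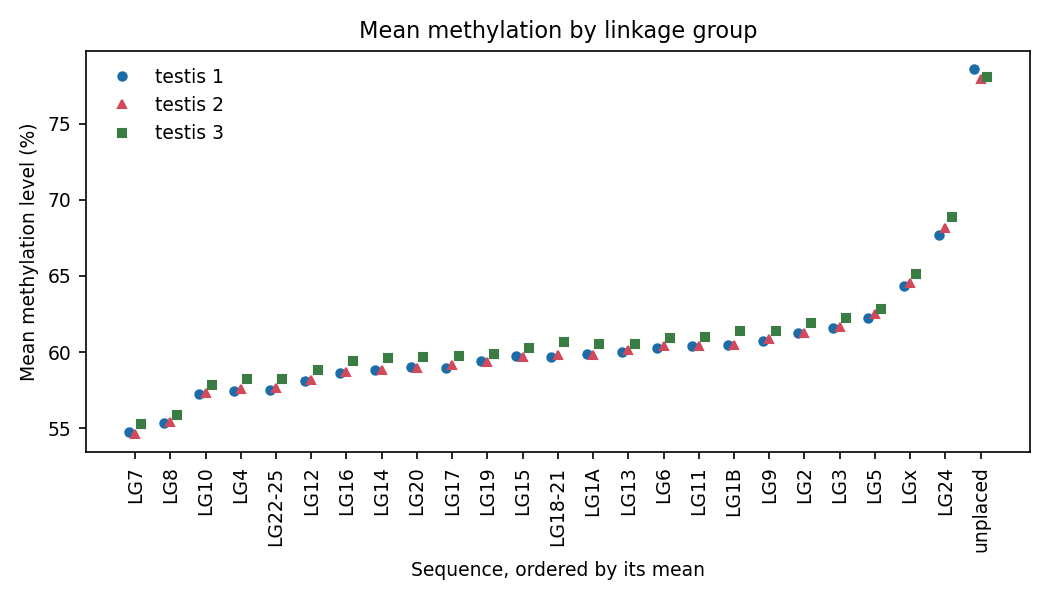
Mean methylation level (vertical axis, percent, axis not starting at 0) of the cytosines on each of the 24 linkage groups and on unplaced sequence, ordered by their mean, 1 symbol per testis library. LG24 and LGx stand above the rest, unplaced sequence is above all linkage groups, and testis 3 is the highest fish on every linkage group.

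Between windows of 1 Mb, taken over all linkage groups, the level varied still more. A window held a median of 826 cytosines, against 12351 to 26514 on a linkage group. The part of this smaller number in the spread was not tested. Over 589 windows of 1 Mb with at least 100 cytosines, the mean level ran from 35.5% to 87.5% around a median of 58.7%, with an SD over windows of 10.1 points against a median SD over fish of 0.50 points. The values of a window were nearly the same in each fish, with r = 0.998 for each pair. The lowest window was LG8:22000001-23000000, with 36.0%, 34.5% and 35.9% in testis 1, 2 and 3 and 43.2% of its 1842 cytosines under 10%. LG2 held both the next lowest window, LG2:8000001-9000000, with a mean of 35.9%, and the next highest, LG2:19000001-20000000, with 85.3%. The highest was LG11:26000001-27000000, with 87.7%, 87.3% and 87.7% over 273 cytosines. It is the end of its linkage group, and its cytosines span 0.208 Mb, whereas those of the other windows named span nearly the full 1 Mb. The high mean of LG24 was spread along it, with 12 of its 14 windows above the median of all windows, as for 14 of 18 on LGx. On LG7, 9 of 29 windows were above the median and on LG8 7 of 23. LG7 also held a window at 84.2%.

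The 3 fish were alike at the level of single cytosines. Pearson's r between libraries was 0.964 for each pair, over 742236 cytosines, and Spearman's rho was 0.839 to 0.845. For cytosines with a mean level from 10% to 80% Pearson's r was 0.657 to 0.660. The mean absolute difference between fish was 6.01 points for testis 1 and 2, 6.11 points for testis 1 and 3, and 5.94 points for testis 2 and 3, and no pair stood apart. The levels of 62.8% to 64.6% of the cytosines lay within 5 points, and about 0.6% were over 50 points apart (0.595% to 0.622%).

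With cytosines binned by the mean of the 3 fish, the spread between fish was the largest at intermediate levels, where the mean sets no close bound on it. The root mean square SD over fish was 2.88 points for cytosines under 10%, 15.9 points from 40% to 60% and 3.88 points at 90% or more. The read numbers alone give 2.14, 7.65 and 2.82 points, so the spread exceeded counting error at every level, 1.34-fold under 10% and 2.07-fold from 40% to 60%. The binning uses the same fish as the spread, so a cytosine that differs strongly between fish lands at an intermediate mean. Therefore the class was also taken from 1 fish and the difference from the other 2 (added after seeing the data). The mean absolute difference was then 2.94 points where the left-out fish was under 10%, 11.8 points where it was from 10% to 80% and 5.42 points where it was over 80%. The order was the same whichever fish was left out, with 11.6 to 12.1 points in the intermediate class and no more than 5.48 points in the others. Counting error is also larger at intermediate levels and was not taken out of these differences, so its part in the order was not tested. Deeper coverage narrowed the spread without removing it. For levels from 20% to 80%, the median SD was 14.6 points at 10 to 19 reads in the lowest library and 5.03 points at 200 or more. The root mean square SD went from 19.2 to 9.01 points over the same range, and its ratio to that of counting error from 1.78 to 3.41. This counting error takes every read as a separate molecule.

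**Figure D5:**
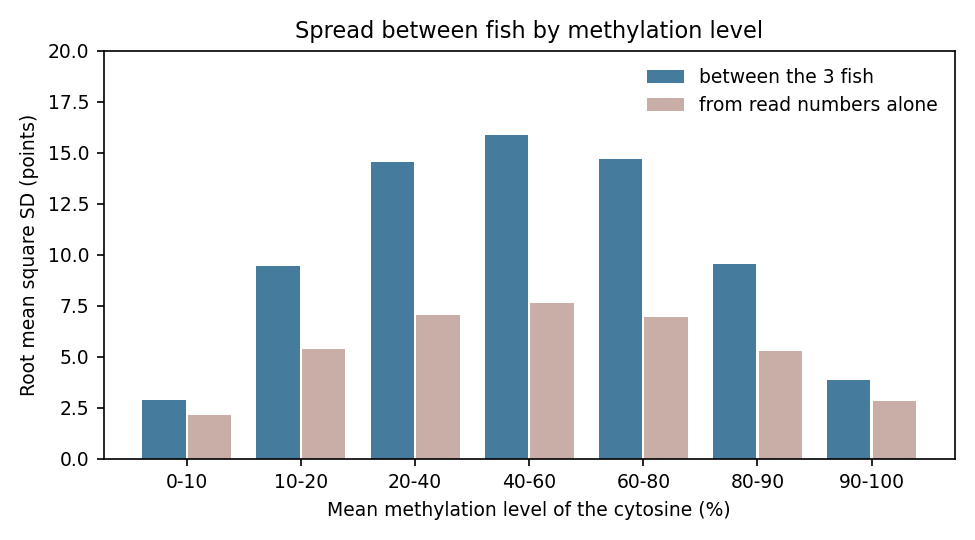
Root mean square SD of the methylation level over the 3 fish (dark bars, points) and the SD that the read numbers alone give (light bars), by the mean level of the cytosine (horizontal axis, percent). The dark bars exceed the light bars at every level and are tallest from 40% to 60%, at 15.9 against 7.65 points.

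Cytosines that differed between the libraries were called by a likelihood ratio test of a logistic model with library as its term, at a p under 0.01 after Benjamini-Hochberg adjustment and a range over 15 points between libraries. Since each fish gave 1 library and the reads are treated as independent, the test compares these libraries. It called 39218 of 742236 cytosines (5.28%). Leaving out a fish, and with it a library to compare, gave 21811 without testis 1, 17186 without testis 2 and 20023 without testis 3. The median range of the called cytosines was 33.1 points, 8138 had a range over 50 points and 1579 over 80 points. A quasi-binomial test that used the strands of a CpG as repeats called 0 of 97368 CpGs, with 1720 at an unadjusted p under 0.05 and a range over 15 points, where the likelihood ratio test called 4964. That test estimates the spread of each CpG from its strands alone, with few degrees of freedom. An adjusted p under 0.01 was therefore almost out of reach over so many CpGs, and the smallest was 0.968. Its 0 calls cannot decide whether the libraries differed.

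The share of cytosines called depended on the mean level, which bounds the range that a call requires. Of cytosines with a mean from 20% to 80%, between 18.9% and 20.4% were called per level bin, against 10.8% from 10% to 20%, 12.3% from 80% to 90%, 0.39% under 10% and 1.02% at 90% or more. With the class taken from 1 fish, the other 2 differed by over 15 points, with no test, at 27.8% of intermediate cytosines, 7.11% of those over 80% and 2.57% of those under 10%. Counting error was not taken out of these shares. The farthest fish was below the others at 25589 of the called cytosines (65.2%). The median level of the middle fish at called cytosines was 77.6%, which leaves more room below than above. Testis 1 was the farthest at 31.0%, testis 2 at 36.9% and testis 3 at 32.1%. Testis 1 and 2 were farthest mostly as the lower fish, with 8801 lower against 3345 higher in testis 1 and 10122 against 4349 in testis 2. In testis 3 the directions were closer to even, with 6666 lower and 5935 higher. On linkage groups the share called was 4.78% to 6.67%, and on unplaced sequence 4.39%.

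Part of the differences recurred in separate reads of the same CpG. A forward cytosine that was called and had a covered partner was also called on the reverse strand in 1439 of 4147 cases (34.7%), against 4.22% of all reverse partners. The same fish stood farthest in the same direction on both strands in 1172 of the 1439 (81.4%). The deviations of a fish had a correlation between strands of 0.294 in testis 1, 0.281 in testis 2 and 0.310 in testis 3, and of 0.465, 0.488 and 0.496 over the 8082 CpGs with both strands from 20% to 80% and within 20 points of each other. The same-strand neighbour within 50 bp of a called cytosine was called in 34.9% of cases, against 5.39% of all such neighbours. Neighbours of this kind can share reads. The part of sequence differences between the fish in the agreement of the strands was not tested.

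Large differences at a single cytosine often did not extend to its neighbour. Of same-strand neighbours within 50 bp of a cytosine with a range over 80 points, 22.6% had a range over 50 points and 62.2% a range of 15 points or less. Among all neighbours these shares were 1.29% and 83.4%. At the cytosines with a range over 80 points, the fish in the middle lay at 80% or more in 35.7%, from 60% to 80% in 14.4%, from 40% to 60% in 26.8%, from 20% to 40% in 9.06% and under 20% in 14.1%. The called cytosine with the largest range and the most reads was on the reverse strand of LG2 at position 4062814. It was methylated in 97 of 97 reads in testis 1 (exact 95% interval 96.3% to 100%), in 0 of 163 reads in testis 2 (0% to 2.24%) and in 58.0% of 174 reads in testis 3 (50.3% to 65.5%). The intervals of the 3 fish did not overlap. The cytosine was selected for its range and reads, so these values are a description. A range of 100 points was reached by 170 cytosines. Genotypes of the fish were not analysed here, so a difference in sequence at a cytosine cannot be told apart from a difference in its methylation.

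Some stretches of several CpGs differed between fish in their mean level. A range in the mean can come from part of the CpGs of a stretch. Of 30220 regions on the linkage groups with 5 or more CpGs at most 100 bp apart, 1915 (6.34%) had a range over 15 points between fish in their mean level, 360 over 30 points and 47 over 50 points. A range over 15 points was found in 27.9% of regions with a mean of 10% to 80%, in 3.48% of those over 80% and in 0.0525% of those under 10%. A mean under 10% leaves little room for such a range. With the class taken from 1 fish and the difference from the other 2 (a comparison added after seeing the data), a difference over 15 points was found, as a mean over the 3 choices of the fish, in 12.2% of regions from 10% to 80%, in 2.30% of those over 80% and in 0.241% of those under 10%. It was 0.167% to 0.335% of the regions under 10% for the single choices. Counting error was not taken out of these shares either. Few regions of intermediate mean held CpGs of both extreme classes. Of 4880, 40.9% had every CpG between 10% and 80%, and 5.68% held both a CpG under 10% and a CpG over 80%. The rest held CpGs of 1 extreme class but not of the other. An intermediate mean can also come from fish that differ strongly, as in the regions named next.

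The region with the largest range was LG5:24205521-24205631, with 9 CpGs over 111 bp. Its mean level was 97.5% in testis 1, 55.2% in testis 2 and 3.67% in testis 3. Across its CpGs the levels ran from 94.7% to 100% in testis 1, from 42.6% to 66.3% in testis 2 and from 0% to 13.5% in testis 3, so that the fish did not overlap at any CpG. The median coverage was 128 reads, and 10 of its 10 cytosines were called. The next region, LG8:17600130-17600154, had 5 CpGs over 25 bp with 98.6%, 6.49% and 100%. Only testis 2 was low there, at all 5 CpGs, and with a median coverage of 14 reads and as few as 10. No CpG of this region was covered on both strands. The region is shorter than a read of 50 bp, so its CpGs can share reads and are not separate observations. Both were selected for their range, so the values are a description.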

How the data were processed

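RRBS libraries of testis from 3 wild sea bass were used. The authors trimmed 50-bp single-end reads with Trimmomatic, aligned them to dicLab v1.0c with BSMAP 2.90 and called methylation with its methratio script. For each strand of a CpG the deposited files give the coverage, a read count, and the share of reads with C and with T in percent. RNA-seq tables of the series, including the authors' fold changes and p-values, were not used here.

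Cytosines were kept where all 3 libraries had 10 reads or more and coverage did not exceed the limit that removes the top 0.1% (798, 1300 and 1053 reads). For distances, runs and regions the reads of both strands of a CpG were summed. Classes were under 10%, 10% to 80% and over 80%. Differences between libraries were tested per cytosine by likelihood ratio, with Benjamini-Hochberg adjustment over all cytosines. Scripts were tested on simulated data. The sites named were the runs with most CpGs, the linkage groups, windows and regions with the most extreme values (2 of each end) and the called cytosine with the largest range. The strand example was chosen after its values were seen. Members and lists were chosen with earlier results of these data known. Alternatives were other coverage minimums, class limits, gaps, strand treatments, tests and each fish left out. Python 3.11.15, numpy 2.4.6, pandas 2.3.3 and scipy 1.17.1 were used.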

Additional observations from a re-analysis of the deposited data

How the results depend on the processing

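Of 207 alternative values, 93 moved by more than the spread between fish or 1.5 times. A change of sign was found in 0, but shares, counts, lengths and means cannot change sign. The share under 10% (23.1%) was 22.4% with a minimum of 5 reads, 23.6% with 20 and 23.6% with 30, 22.5% with strands summed, 27.8% on linkage groups alone, 27.2% for CpGs with both strands within 20 points (an alternative added after seeing the data) and 25.7% with limits of 20% and 80%. The share over 80% (58.6%) was 59.1% with 20 reads, 59.7% with 30, 51.7% on linkage groups, 58.0% for CpGs with both strands within 20 points and 47.1% with limits of 10% and 90%. The mean (65.1%) was 65.4% with 5 reads, 65.5% with strands summed, 59.8% on linkage groups and 62.6% for CpGs with both strands within 20 points. The correlation at 51 to 100 bp (0.955) was 0.963 with 30 reads, 0.866 for ranks, 0.951 between fish, 0.951 on the same strand and 0.957 without CpGs of unequal strands (added after seeing the data). At 1001 to 2000 bp (0.414) it was 0.419 with 30 reads, 0.498 with unplaced sequence, 0.343 for ranks and 0.411 on the same strand. The range over linkage groups (13.4 points) was 14.4 with 30 reads and 14.5 over 1-Mb windows. The cytosines called (39218, 5.28% of those tested) were 60204 (8.11%) at an adjusted p under 0.05. Among CpGs with both strands within 20 points, where fewer sites were tested, they were 6692 of 180806 (3.70%). Without 1 fish, where fewer libraries were compared, they were 17186 to 21811 (2.32% to 2.94%). The quasi-binomial test, for which the limit was almost out of reach, called 0. The correlation between libraries (0.964) was 0.841 for ranks and 0.658 at 10% to 80%. For the other changes the cause was not tested.

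No paired analysis was possible because a single group of fish is described, with 1 library per fish. Depth limits single levels at 10 to 20 reads. 3 fish give a spread with little precision, and differences between them were tested between libraries alone.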
